A study of Rattus norvegicus with 9 samples.

Results

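The cytosolic ribosomal protein genes were followed in the cerebral cortex of 9 irradiated rats, on Illumina bead arrays that read messenger RNA levels gene by gene. A gene belonged to the set when its platform symbol had the form Rpl or Rps followed by a number, or was Rplp0, Rplp1, Rplp2 or Rpsa, while the Rps6 kinases were left out. This gave 65 genes with 1 probe each, of 10412 named genes on the array, namely 38 of the large subunit, 23 of the small subunit, 3 of the stalk and Rps19bp1, whose product binds Rps19 and is no subunit. The groups were 4 males and 5 females of the outbred Sprague-Dawley strain, all exposed to 145 cGy from a caesium source on gestation day 17 and killed at 60 days of age. All animals shared that exposure, and unirradiated rats were not analysed here, so no value below measures an effect of radiation. The sample titles further hold 1 of 3 consecutive numbers of unstated meaning. The first is shared by male 1, male 2 and female 1, the second by male 3, male 4, female 2 and female 3, and the third by female 4 and female 5. Whether animals were littermates is not stated, so p-values measure the spread between these animals.

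Ribosomes build every protein of the cell. The small subunit reads the messenger RNA, the large subunit joins the amino acids, and a flexible stalk on the large subunit recruits the elongation factors. Messenger RNAs of ribosomal proteins typically begin with a C and a run of further pyrimidines, the terminal oligopyrimidine tract, through which the mTOR pathway controls their translation. Several members also act outside the ribosome, among them Rpl5 and Rpl23, which can bind the p53 regulator Mdm2 when ribosome assembly fails.

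The starts of these genes show that shared feature. RefSeq (build GRCr8) gave a promoter sequence, 250 bases before to 50 bases from the annotated start on, for 54 of the 65 genes. In 20 of these (37.0%) the annotated start was a C followed by at least 4 pyrimidines, against 2.52% of 21842 promoters of protein-coding genes. A run of at least 7 pyrimidines that began with a C within 10 bases of the start was present in 32 of 54 (59.3%), against 10.7% of the protein-coding promoters. Examples are shown as 60 bases before and 30 bases from the start on, with the longest such run near the start in capitals. Rpl19 and Rplp1, and the paralogs Rpl22 and Rpl22l1, had their lowest values in the same 3 animals (male 2, female 1 and female 3), Rps24 and Rps3a had their highest there, and Rps9 split the animals.
Rpl19, chr10:83519004-83519093, plus strand: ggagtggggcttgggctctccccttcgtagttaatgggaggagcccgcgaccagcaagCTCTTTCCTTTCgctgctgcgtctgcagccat
Rplp1, chr8:71290843-71290932, minus strand: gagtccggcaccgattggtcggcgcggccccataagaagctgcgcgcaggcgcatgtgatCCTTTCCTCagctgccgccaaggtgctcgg
Rpl22, chr5:168117901-168117990, plus strand: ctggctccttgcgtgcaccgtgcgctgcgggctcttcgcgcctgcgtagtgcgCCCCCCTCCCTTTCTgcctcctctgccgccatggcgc
Rpl22l1, chr2:113683136-113683225, plus strand: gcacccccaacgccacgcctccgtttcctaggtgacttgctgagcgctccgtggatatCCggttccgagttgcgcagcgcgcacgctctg
Rps24, chr16:96457-96546, plus strand: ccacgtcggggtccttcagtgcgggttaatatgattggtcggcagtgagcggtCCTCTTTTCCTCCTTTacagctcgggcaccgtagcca
Rps3a, chr2:173827013-173827102, minus strand: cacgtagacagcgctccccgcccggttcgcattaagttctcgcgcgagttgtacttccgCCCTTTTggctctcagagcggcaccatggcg
Rps9, chr1:74430408-74430497, minus strand: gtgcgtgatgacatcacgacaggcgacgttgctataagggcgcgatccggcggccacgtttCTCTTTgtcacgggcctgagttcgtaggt
Rps24 had the longest run of these genes, at 16 bases, and Rpl22l1 the shortest, at 2, whereas its paralog Rpl22 had 15. Of the members whose 3 lowest values came from those animals, 13 of 20 with a sequence (65.0%) held a run of at least 7, against 19 of 34 other members (55.9%). The 20 include Rpl12 and the 34 include Rps19 and Rpl36a, which were near background in most or all animals. The motif CCGGAAG, bound by ETS factors such as GABP, was found on either strand in 15 of 54 members (27.8%) and in 10.7% of the protein-coding promoters. AAGATGGC, bound by YY1, was found in 5 of 54 (9.26%) and in 3.68% of them. The motifs can overlap by the letters AAG, which happened in 0 of 54 members, and a match describes the letters in the window, not a bound site.

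Values are normalised log2 intensities unless called raw. A probe counted as detected on an array when its raw intensity exceeded the 99th percentile of probes the authors had left out of their processed table, and probes detected on at least 4 of 9 arrays were tested. Of the 65 members, 61 were detected in all 9 animals and 62 were tested. Rplp2, a stalk protein, was detected in 4 of 4 males and 4 of 5 females. Rpl12, near the base of the stalk, was detected in 1 of 4 males and 1 of 5 females, and Rps19, a small subunit protein mutated in human Diamond-Blackfan anaemia, in 1 of 4 males and 0 of 5 females. Rpl36a, an X-linked large subunit gene, was detected in 0 of 9 animals. Raw member intensities ran from 40.1 to 9253, but probes differ in how strongly they bind, so these do not rank the genes. Ribosomal protein genes have many near-identical copies in mammalian genomes, and the probe sequences were not used here, so signal from a copy cannot be told apart. The probe of Rpl23a gave the same raw value as an unnamed probe in every animal.

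The tissue label was checked against marker genes. Detected in all animals were 8 of 8 named genes of glutamatergic neurons, 12 of 12 of interneurons, 9 of 9 of astrocytes and 13 of 13 of oligodendrocytes. Of neighbouring tissue, 3 of 11 choroid plexus genes and 10 of 10 striatal genes were detected throughout. Median raw intensity ranged from 47.9 to 57.2 over the arrays. The first principal component of all tested probes (33.5% of the variance) had scores of 16.1 in male 2, 19.0 in female 1 and 17.6 in female 3, while the other 6 arrays lay between -13.1 and -4.53. No label marks those 3 arrays, and the main descriptions that rest on them are given with and without them.

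Rps9 and Rpl30 divided the animals into a high and a low level, and the division followed neither sex nor title number. Rps9 is a small subunit protein that binds early in assembly and helps keep decoding accurate. Its log2 value was 9.51, 9.53, 5.11 and 9.87 in males 1 to 4, and 5.15, 9.81, 5.12, 5.39 and 9.89 in females 1 to 5. Thus 3 of 4 males and 2 of 5 females were high, and no animal lay between 5.39 and 9.51. In raw intensity, male 3, female 1, female 3 and female 4 read 48.4, 57.6, 48.6 and 55.7, close to the detection bounds of those arrays, at 47.3, 54.1, 47.2 and 47.2. The other animals read from 726 to 979. In the authors' own log2 values the low animals stood at 5.62 to 5.81 and the high ones at 9.52 to 9.89. Rpl30, a large subunit protein that in yeast also regulates its own splicing, read 10.27, 10.83, 6.58 and 10.62 in males and 9.94, 6.32, 10.09, 6.79 and 10.41 in females. Male 3 and female 4 were low for both genes, female 2 for Rpl30 alone, and female 1 and female 3 for Rps9 alone. Every low value of Rpl30 stayed above the bound, at raw intensities of 89.0 to 125, against 940 to 1774 in the other animals. A distance above 2 log2 units between neighbouring animals, a limit chosen after these values were seen, occurred in 11 of 12370 tested probes (0.0889%), and Rps9 and Rpl30 are 2 of the 11. Among the other members the largest such distance was 0.95, in Rpl23. Male minus female, Rps9 differed by 1.43 ± 1.22 (SE) and Rpl30 by 0.87 ± 1.01, and adjusted p was 1.00 for each in limma. With 1 animal left out in turn these values ranged from 0.95 to 2.56 for Rps9 and from 0.27 to 1.86 for Rpl30. Without male 2, female 1 and female 3, Rps9 was at -0.20.

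**Figure D1:**
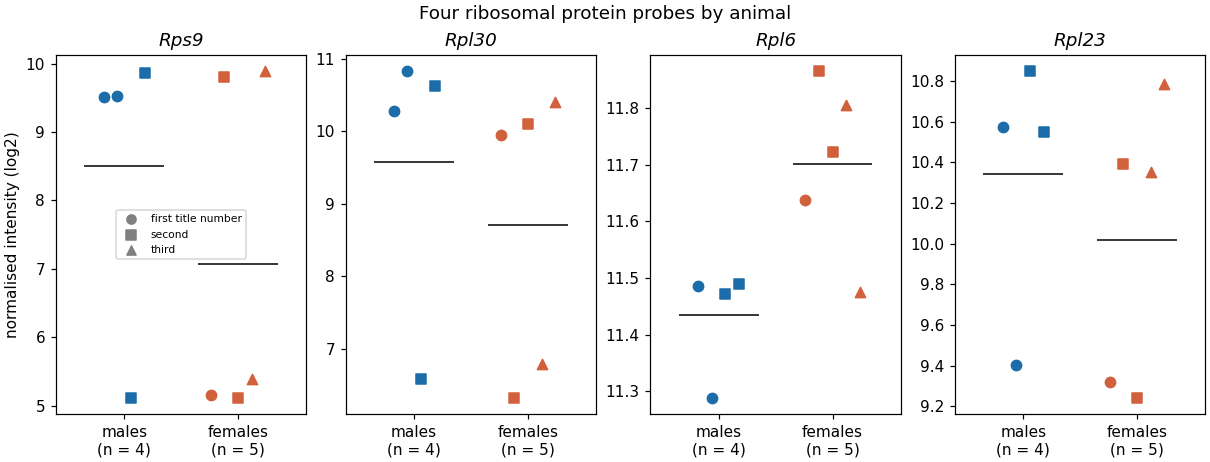
Normalised log2 intensity of Rps9, Rpl30, Rpl6 and Rpl23 in each animal, males left and females right, with the group mean as a line and the title number as the marker shape. Rps9 and Rpl30 stood near 5.11 to 6.79 in some animals and near 9.51 to 10.83 in the others, in either sex, while the male and female values of Rpl6 overlapped by 1 female.

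The members differed in how steady they were. The SD within sex had a median of 0.19 log2 units over the 62 tested members, against 0.17 over all tested probes. It was below 0.2 in 34 of the 61 members detected throughout. The steadiest were Rpl23a at 0.07, a large subunit protein at the exit tunnel, Rps7 at 0.08, and Rpl3 and Rps4x at 0.10 each. Rpl3 reaches towards the catalytic centre, and Rps4x is the X-linked form of a small subunit protein. At the other end, 8 of 62 members (12.9%) had an SD above 0.4, against 2.71% of all tested probes. Beside Rps9 at 2.43 and Rpl30 at 1.99 these included Rpl23 at 0.67, Rps12 at 0.58, Rpl37l1 at 0.51 and Rps29 at 0.50.

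Several of the variable members were low in the same animals. In Rpl23, which can bind Mdm2, the males read 10.57, 9.40, 10.85 and 10.55 and the females 9.32, 10.39, 9.24, 10.35 and 10.78. Male 2, female 1 and female 3 were lowest, and 0.95 log2 units separated them from the rest. Rps12, a small subunit protein at the beak of that subunit, had 8.92, 8.23, 9.19 and 9.44 in males and 8.10, 9.28, 8.18, 9.35 and 9.19 in females. The same animals were lowest for Rps29, a zinc-binding small subunit protein, at 10.54, 10.32 and 10.24, against 11.19 to 11.40 in the other 6. They were lowest for Rpl37l1, a gene whose symbol marks it as like Rpl37, at 8.23, 8.22 and 8.21, against 9.003 to 9.29. Rpl13a, which in human cells can leave the ribosome to repress translation after interferon, read 9.01, 8.79 and 8.93 there and 9.59 to 9.94 elsewhere. In all, these arrays held the 3 lowest values of 25 of 62 tested members (40.3%), against 10.7% of all tested probes. The 25 included Rpl5 and Rps6, the main substrate of S6 kinase, and Rplp1 of the stalk.

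A smaller number of members went the other way. For Rps24, a small subunit protein, male 2, female 1 and female 3 read 7.78, 7.77 and 7.95, and the other animals 6.93 to 7.29. Rpl3l, the paralog of Rpl3 known from muscle, read 6.99, 6.93 and 7.09 there and 6.34 to 6.62 elsewhere. Rpl7l1, a paralog of Rpl7 that acts in ribosome assembly, and Rps3a, which sits where messenger RNA leaves the small subunit, were also highest on these arrays. Those 4 genes are 6.45% of the 62 tested members, against 10.2% of all tested probes with the same 3 arrays highest. Which arrays were compared was itself read from the data, so these counts describe the animals and carry no test. On the other 6 arrays the median SD within sex was 0.09 for the members and 0.13 for all tested probes. On those arrays 2 of 62 members (3.23%), Rps9 and Rpl30, stayed above 0.4, against 2.18% of all tested probes. There the SD was 0.21 for Rpl23, 0.19 for Rps12 and 0.09 for Rps29.

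**Figure D2:**
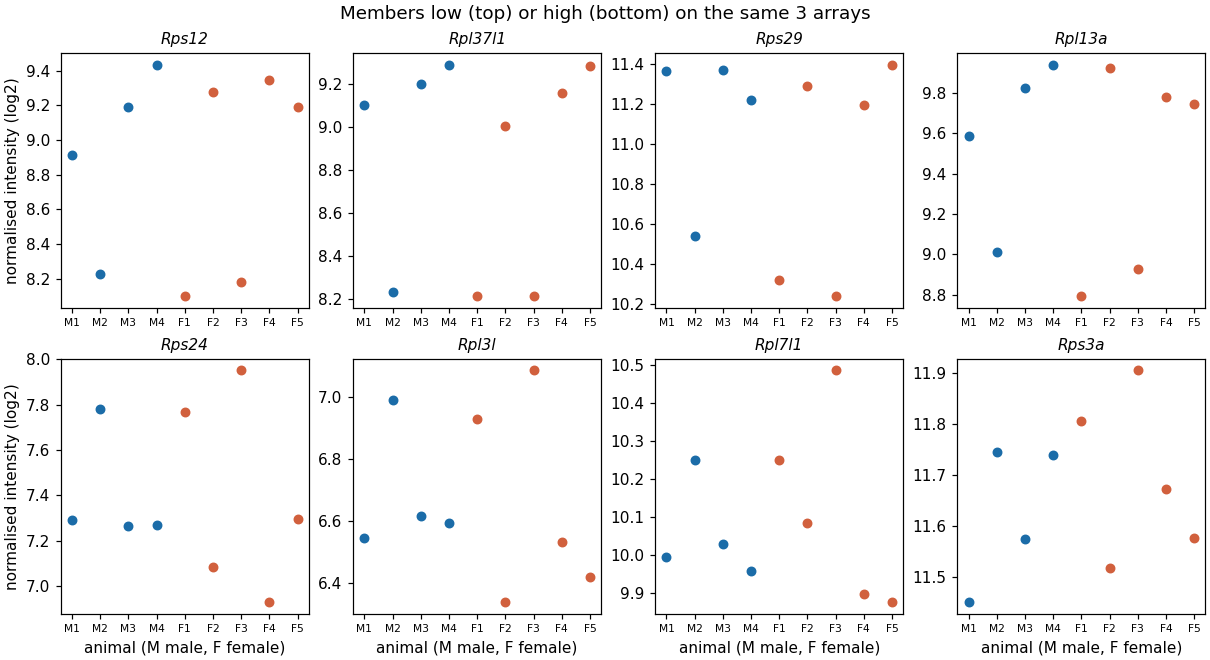
Normalised log2 intensity by animal for 4 members that were lowest on the arrays of male 2, female 1 and female 3 (Rps12, Rpl37l1, Rps29 and Rpl13a, top) and 4 that were highest there (Rps24, Rpl3l, Rpl7l1 and Rps3a, bottom). In Rps29 these animals lay at 10.24 to 10.54 and the others at 11.19 to 11.40, and in Rps24 they lay at 7.77 to 7.95 and the others at 6.93 to 7.29.

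Across the 9 animals, with sex means removed, the median correlation between pairs of the 61 members was 0.38, and 0.41 without Rps9 and Rpl30. It was 0.50 among 22 small subunit genes and 0.29 among 36 large subunit genes. The same measure gave 0.43 for 55 mitochondrial ribosomal protein genes, 0.35 for 55 respiratory chain genes and -0.01 for 44 translation initiation and elongation factors. The points of each pair share the same 9 arrays. On the 6 arrays without male 2, female 1 and female 3 it was 0.39 for the cytosolic members, 0.12 for the mitochondrial ribosomal proteins, 0.23 for the respiratory chain and 0.01 for the translation factors. Closest to the mean of the other members were Rps25 (r = 0.92), Rpl8 (0.91) and Rpl36al1 (0.91), and farthest were Rpl3l (-0.76), Rps24 (-0.70) and Rpl7l1 (-0.68). The paralogs Rpl22 and Rpl22l1 fell on the same side, at 0.73 and 0.84. Rps19bp1 stood at 0.86. On the 6 arrays without male 2, female 1 and female 3, the values were 0.85 for Rps25, 0.65 for Rpl8 and 0.57 for Rpl36al1, and -0.22 for Rpl3l, 0.34 for Rps24 and -0.29 for Rpl7l1. There Rpl22 was at -0.30, Rpl22l1 at 0.90 and Rps19bp1 at 0.42.

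**Figure D3:**
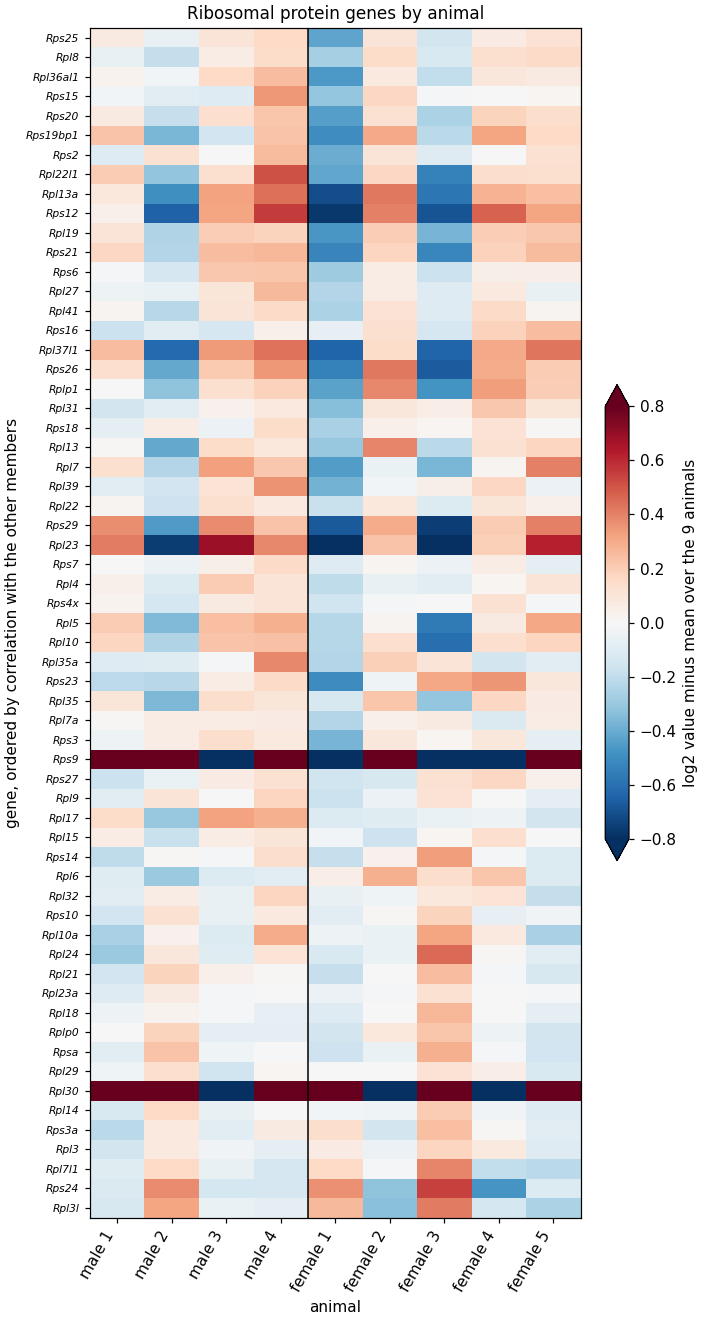
Log2 value minus the gene's mean over the 9 animals for the 61 members detected throughout, with males left and females right of the line and genes ordered by their correlation with the other members. Male 2, female 1 and female 3 were low for most genes of the upper part and high for the lowest rows, Rpl7l1, Rps24 and Rpl3l. The colour scale is exceeded by Rps9, Rpl30 and Rpl23.

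Averaged over the 61 members, the deviation from the 9-animal mean was 0.04, -0.05, -0.01 and 0.21 in males and -0.27, 0.06, -0.10, 0.01 and 0.10 in females. Male 4 was above a gene's mean for 52 of 61 members, and female 1 for 8 of 61. Without Rps9 and Rpl30 the scores were -0.01, -0.11, 0.08 and 0.16 in males and -0.25, 0.07, -0.08, 0.09 and 0.05 in females. Male 2, female 1 and female 3 were the 3 lowest animals with and without these genes. The same animals were lowest for mitochondrial ribosomal proteins (-0.09 in male 2, -0.19 in female 1 and -0.13 in female 3) and for the respiratory chain (-0.10, -0.16 and -0.12). They were also lowest for 39 ribosome biogenesis genes (-0.07, -0.11 and -0.05). Translation factors lay between -0.03 and 0.01 in every animal. Recomputed on the other 6 arrays, the scores ran from -0.08 to 0.09 for the members without Rps9 and Rpl30, from -0.04 to 0.06 for mitochondrial ribosomal proteins and from -0.05 to 0.06 for the respiratory chain. For ribosome biogenesis they ran from -0.03 to 0.04. Female 1 also had the highest summed level of the choroid plexus genes, 8144 against 1596 to 3403 in other females and 1976 to 2918 in males, and each of its 11 genes was detected on at least 1 array. The part of that tissue in the scores was not tested, and in whole tissue fewer cells of a type and less RNA per cell cannot be told apart.

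**Figure D4:**
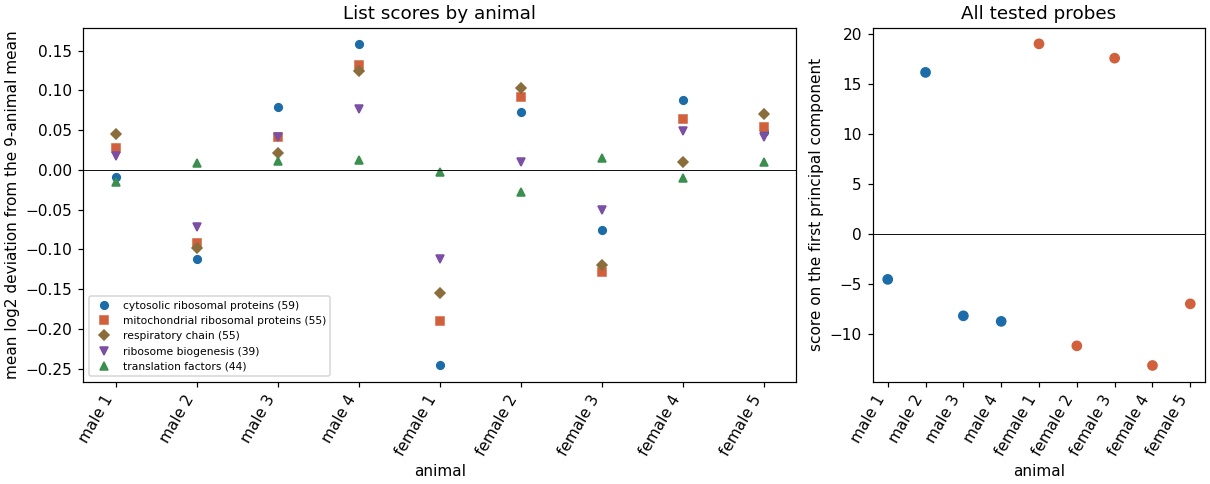
Mean log2 deviation from the 9-animal mean for each list by animal (left), males before females, and each array's score on the first principal component of all tested probes (right). Cytosolic ribosomal protein genes without Rps9 and Rpl30 were lowest in female 1, at -0.25, and highest in male 4, at 0.16, while translation factors stayed between -0.03 and 0.01.

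No ribosomal protein gene was called between males and females at an adjusted p of 0.05. In limma 0 of 62 members were called, as were 0 of 12370 tested probes (0%). At an unadjusted p of 0.05, 1 of 62 members passed (1.61%), against 1.94% of all tested probes. That gene was Rpl6, a large subunit protein, at 11.49, 11.29, 11.47 and 11.49 in males and 11.64, 11.87, 11.72, 11.80 and 11.48 in females. The mean was 11.43 ± 0.10 (SD) over 4 males and 11.70 ± 0.15 (SD) over 5 females. Male minus female this came to -0.27 ± 0.10 (SE), with an unadjusted p of 0.0185 in limma's moderated test and an adjusted p of 1.00. Female 5 lay within the male range. In 0 of 62 members were the sexes free of overlap, against 0.396% of tested probes with all males higher and 0.396% with all males lower.

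Among members above zero, the smallest p belonged to Rpl17, a protein of the exit tunnel, at 0.20 ± 0.12 (SE), Rpl36al1 at 0.19 ± 0.12 and Rpl22l1 at 0.23 ± 0.19. Rps6 and Rpl7 differed by 0.13 ± 0.11 and 0.20 ± 0.17. Below zero stood Rps16 at -0.16 ± 0.10, Rpl3 at -0.07 ± 0.09, Rpl24 at -0.09 ± 0.13, Rps3a at -0.07 ± 0.11 and Rps23 at -0.10 ± 0.16. None of these passed the test. Rps16 had a low signal, at raw intensities of 60.6 to 81.5 against detection bounds of 46.6 to 54.1. Its difference was -0.13 without background correction and -0.10 with a normexp offset of 50. Of the X-linked members, Rpl10 differed by 0.18 ± 0.17, Rpl39 by 0.10 ± 0.13 and Rps4x by 0.03 ± 0.09, and the 95% intervals were -0.18 to 0.54, -0.18 to 0.39 and -0.17 to 0.22. With 1 animal left out, Rpl10 ranged from 0.049 to 0.29 and Rpl39 from 0.0038 to 0.17. Of these genes Rps4x had the narrowest interval, so larger differences in Rpl10 and Rpl39 could have been missed.

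**Figure D5:**
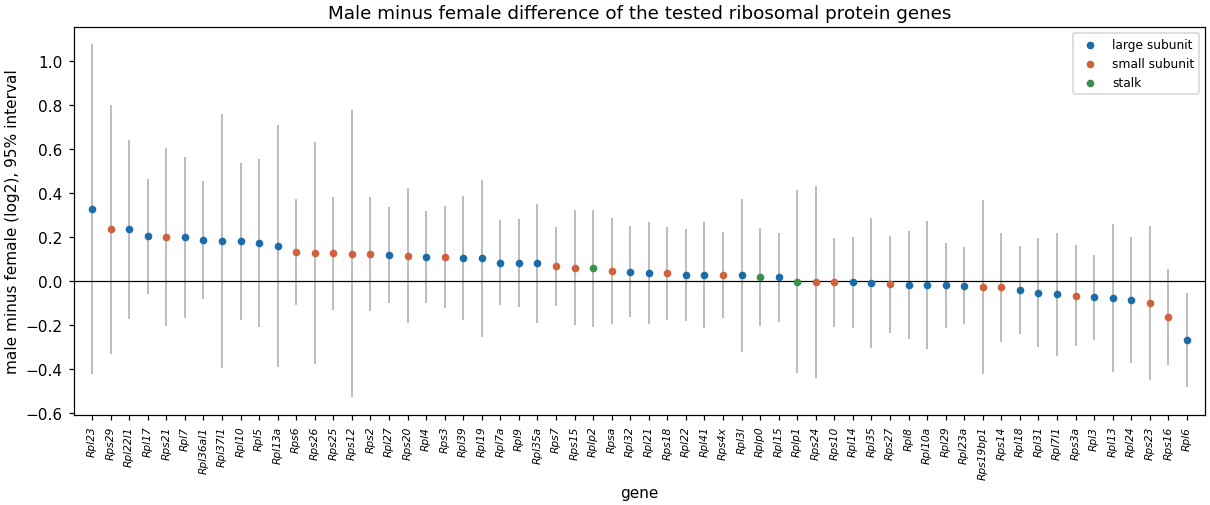
Male minus female difference in log2 intensity of 60 tested members, coloured by subunit (Rps19bp1 with the small subunit), with 95% intervals from limma; Rps9 and Rpl30 are left out because their intervals exceed the scale. Every interval but that of Rpl6 includes 0.

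As a set, 40 of 62 members had a higher mean in males and 22 a lower one, which is 64.5% higher against 50.9% of all tested probes. The median difference was 0.04 over the members and 0.00 over all tested probes. It was 0.04 for 36 large subunit genes (23 higher), 0.06 for 22 small subunit genes (15 higher) and 0.02 for the 3 stalk genes (2 higher). Marker genes of some other cells stood on 1 side in the same comparison and those of others were divided, with 0 called. Higher in males were 5 of 8 genes of glutamatergic neurons, 5 of 12 of interneurons and 4 of 9 of astrocytes. So were 5 of 9 microglial, 2 of 5 endothelial and 2 of 4 hippocampal genes. Of choroid plexus genes 1 of 6 was higher and 5 were lower, at a median of -0.20. Of oligodendrocyte genes 13 of 13 were higher in males, at a median of 0.19, with summed levels of 12173 to 16754 in males and 7416 to 19125 in females. Of meningeal genes 9 of 10 were higher, at 0.21, with sums of 2268 to 3873 in males and 1246 to 4320 in females, and of red cell genes 5 of 5, at 0.13, with sums of 2735 to 5888 in males and 2211 to 3955 in females. Of striatal genes 9 of 10 were lower in males, at -0.31, with sums of 2874 to 5125 in males and 3596 to 6575 in females. Each of these genes was detected on at least 1 array, and their part in the shift of the members was not tested. The members' median depended on single animals. It was 0.0022 with female 1 left out, when 31 of 62 members were higher, and 0.01 with male 4 left out. Leaving out male 1 gave 0.08, male 2 gave 0.09, and female 2 or female 4 gave 0.07. Without male 2, female 1 and female 3 it was 0.01, with 34 of 62 higher. With the title number as a fixed block it was 0.11, with 46 of 62 higher and 0 called. In that fit female 4 and female 5, alone in the third title number, add nothing to the sex difference. As a random block it was 0.04, with 41 of 62 higher and 0 called. Within the first title number, which holds 2 males and 1 female, 53 of 62 members were higher in males, at a median of 0.19, against 51.4% of tested probes. Within the second, with 2 animals of each sex, 41 of 62 were higher, at a median of 0.09, against 49.96% of tested probes. With female 3 left out of the second, 42 of 62 were higher, at a median of 0.03, against 48.98% of tested probes, and the first has no female without female 1. The difference between these numbers was tested as an interaction in 7 animals. There 0 of 62 members were called at an adjusted p of 0.05, against 0.0162% of tested probes, and 0 of 62 had an unadjusted p under 0.05, against 1.83%.

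Genes that work beside the ribosomal proteins were tested in the same fit, where 50.9% of all tested probes were higher in males. Of 40 tested genes of ribosome biogenesis, 25 were higher in males and 15 lower, at a median of 0.03, with 0 called. Emg1, a methyltransferase of ribosomal RNA, differed by 0.27 ± 0.10 (SE), the assembly kinase Riok1 by 0.26 ± 0.14 and Nop16, a nucleolar protein, by 0.19 ± 0.11. Of 11 genes whose messenger RNAs are regulated with those of ribosomal proteins, such as elongation factor subunits, 10 were higher in males at a median of 0.11 and 0 were called. The elongation factor subunits Eef1b2 and Eef1d were at 0.24 ± 0.14 and 0.15 ± 0.11, and Tpt1, a growth-related protein, at 0.12 ± 0.09. Among 15 genes listed as regulators of ribosomal protein messenger RNAs, 8 were higher and 7 lower at a median of 0.00. The kinases Akt1, Rps6kb2 and Rps6ka2 stood at -0.18 ± 0.11, -0.18 ± 0.14 and 0.09 ± 0.09. Of the members tied to Diamond-Blackfan anaemia, 7 of 11 were higher in males at a median of 0.07, and of those that bind Mdm2, 5 of 7 at 0.11. Mdm2 and Mdm4 themselves differed by -0.02 ± 0.13 and 0.03 ± 0.18. Of other lists, 41 of 57 mitochondrial ribosomal protein genes and 41 of 58 respiratory chain genes were higher in males. Each of these lists had a median of 0.03. Of 44 translation factors 24 were higher, at 0.01, with 0 called in any list. Without male 2, female 1 and female 3, mitochondrial ribosomal protein scores were -0.04, -0.03 and 0.06 in males 1, 3 and 4. In females 2, 4 and 5 they were 0.02, -0.005 and -0.01. Respiratory chain scores there were -0.02, -0.04 and 0.06 in these males and 0.04, -0.05 and 0.01 in these females. Unadjusted p in limma was under 0.05 for 1 of the 40 biogenesis genes, Emg1, against 1.94% of all tested probes. It was so for 0 of the 11 genes regulated with ribosomal proteins and 0 of the 15 listed regulators. It was under 0.05 for 1 of 44 translation factors, the initiation factor subunit Eif2s3, at -0.43 ± 0.12 (SE). Of 57 mitochondrial ribosomal protein genes it was so for 1, Mrpl48, at 0.20 ± 0.09. Of 58 respiratory chain genes it was so for 2, Cox6a2 at 0.44 ± 0.20 and Ndufb4 at 0.22 ± 0.10.

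No member passed the adjusted test for title number. In limma's F test with sex as a covariate, 0 of 62 members and 0 of 12370 tested probes (0%) were called. Unadjusted p was under 0.05 for 18 of 62 members (29.0%), against 9.23% of all tested probes, and the adjusted p of these 18 lay between 0.502 and 0.540. By plain means, not adjusted for sex, all 18 were lowest in the first title number, as were 47 of 62 members (75.8%) and 37.2% of tested probes. Smallest was the p of Rps23, a decoding-centre protein, with means of 10.57 in the first, 11.001 in the second and 11.10 in the third title number (unadjusted p 0.0061). Rps12 had 8.41, 9.02 and 9.27, Rpl7 had 9.42, 9.63 and 9.81, Rpl39 had 10.58, 10.90 and 10.84, and Rpl37l1 had 8.52, 8.93 and 9.22. For 14 of the 18, male 2, female 1 and female 3 held the 3 lowest values, and 2 of these animals carry the first title number. Without those 3 arrays, 0 of 62 members had an unadjusted p under 0.05, against 2.45% of tested probes, with 1 animal left in the first title number. With female 1 alone left out, the first title number held only males and the third only females. Title number and sex were then told apart by the second number alone. The count was likewise 0 there, against 2.84% of tested probes. It was 9 for female 5 (10.9% of probes), 10 for female 4 (7.07%) and 10 under median scaling (9.68%). It was 25 when female 2 was left out (13.4% of probes), 21 for male 1 (10.3%) and 20 for female 3 (10.3%).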

How the data were processed

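Cortex RNA (250 ng, made into biotin-labelled cRNA per the labels' protocols) was read on Illumina bead arrays, 1 per animal. Each deposited array file holds 22517 linear intensities that, judged by the values, were not normalised between arrays. The authors' deposited value table holds log2 values for 15912 of these probes, apparently quantile normalised. Scanner software and any background step by the authors: not given in the sources used here. All value columns were mapped to samples and 0 were left out.

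Intensities were corrected with limma's normexp method (offset 16), then quantile normalised between arrays and log2 transformed, all in limma 3.58.1 (R 4.3.3). Detection bounds came from the 6605 probes outside the authors' table, and 12370 probes were tested. Tests were limma's moderated test between the sexes (two-sided), F test over title numbers and interaction, each adjusted by Benjamini-Hochberg over all tested probes. On simulated data with independent noise, the mean estimates lay near the planted changes. Those changes were larger than the median difference of the members. The simulation therefore does not show how small a change the tests could find in these animals. Gene names came from the platform annotation, and 64 members matched RefSeq by identifier and 1 by symbol. The number of arrays limits the precision. Members, lists, alternatives and the rule for named genes were chosen with earlier results of these data known. Named were called members, those with the smallest p between the sexes or title numbers, the most and least variable, those closest to and farthest from the others, undetected, paralogous and X-linked members, and up to 3 genes of each companion list. The alternatives covered background, offset, scaling, the authors' values, filters, blocks, limma settings, probe choice and leaving out animals. Scores without Rps9 and Rpl30, descriptions on 6 arrays and the second title number without female 3 were added after the data were seen. Title numbers do not clearly pair the animals: deviations from the sex means correlated at a median of -0.14 over 10 pairs sharing a number and -0.22 over 26 others.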

Additional observations from a re-analysis of the deposited data

Results flagged for a closer look

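In 8 of 72 groups checked, 1 animal lay far from the others of its sex. Chance flags about 1 in 20 independent groups, but these groups share animals and several genes were named for their spread, so the count has no chance level to be read against. Male 3 was lowest among the males for Rps9, at 5.11 against 9.51 to 9.87, and for Rpl30, at 6.58 against 10.27 to 10.83. Male 2 stood apart in 4 genes. It was lowest for Rpl10, at 11.02 against 11.44 to 11.50, and for Rpl6, at 11.29 against 11.47 to 11.49. It was highest for Rps24, at 7.78 against 7.26 to 7.29, and for Rpl3l, at 6.99 against 6.54 to 6.62. Female 3 was highest among the females for Rpl23a, at 12.29 against 12.12 to 12.17, and for Rpl24, at 10.30 against 9.73 to 9.86. No interaction between sex and title number was called for a member, and no explanation was tested for these values.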

How the results depend on the processing

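No member was called between the sexes or for title number under any of the alternatives. Over all tested probes, 0 were called between the sexes except with single animals left out, where the count ranged from 0 to 2 (2 without male 1, 1 without male 4). For title number, 0 were called except 1 with no filter, 2 without the 3 arrays, 3 without female 2, 3 without female 5 and 1 without male 4. The median difference of the members ranged from 0.0022 to 0.09 with 1 animal left out and from 0.01 to 0.11 under the other alternatives, and between 31 and 48 members were higher in males. The ribosomal protein score spanned 0.48 over animals, 0.22 without male 2, female 1 and female 3, and 0.31 to 0.48 with 1 animal left out. The title number as a fixed replicate block turned the sign of 10 of 62 differences, among them 4 of genes named by the rule, at -0.13 for Rpl3l, 0.11 for Rpl8, 0.17 for Rps19bp1 and 0.095 for Rps23. It changed no call. In that fit the third title number, which holds females only, adds nothing to the sex difference. Rpl3l was at -0.016 under median scaling, which moved the median of all probes to -0.03. Without the 3 arrays 14 of 62 signs turned, among named genes those of Rpl7l1 (0.042), Rps12 (-0.090), Rps24 (0.17) and Rps9 (-0.20). With 1 animal left out in turn, the difference ranged from -0.050 to 0.0092 for Rpl23a, -0.14 to 0.016 for Rpl24, -0.076 to 0.13 for Rpl3l, -0.12 to 0.031 for Rpl7l1 and -0.087 to 0.042 for Rpl8. It ranged from -0.015 to 0.16 for Rplp2, -0.056 to 0.36 for Rps12, -0.16 to 0.088 for Rps19bp1, -0.13 to 0.13 for Rps24 and -0.010 to 0.077 for Rps4x. Over all 62 members, 6 to 14 signs turned with 1 animal left out. The cause was not tested. The replicate numbers only name animals, so no pairing was used beyond the title number. Members near background, Rps19, Rpl12 and Rpl36a, are limited by signal, and 9 arrays limit all comparisons. Signal was also low for Rplp2 and Rps16, and for Rps9 in its low animals.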

Other observations

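Of the 11 probes with a distance above 2 log2 units, 1 unnamed probe had the same low animals as Rps9. No other probe among them had exactly those of Rpl30. Whether the unnamed probe reads a ribosomal protein gene or a copy of one is not known. Washc3, a subunit of the endosomal WASH complex, read 5.001 in male 3 and 4.88 to 4.90 in females 2, 3 and 4, against 7.52 to 7.79 in the other animals. Male 3 and female 4 were low for Washc3, Rps9 and Rpl30. The low animals of Rpl30, male 3, female 2 and female 4, were all low for Washc3, which was low in female 3 as well. Rpl30 and Washc3 both lie on chromosome 7, and a link between them was not tested. Car3, a carbonic anhydrase, read 7.87 and 8.18 in males 1 and 3 and 7.89 and 8.19 in females 1 and 3, against 5.13 to 5.77 in the other animals. Spock2, a proteoglycan, read 6.55 in female 2 and 10.76 to 11.11 in the other animals.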
